A study of Mus musculus with 6 samples.

Results

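The 44 genes described here belong to the interferon response of mouse liver. They comprise genes induced by type I interferons, such as the Ifit, Oas and Mx families, genes induced by interferon gamma, such as the guanylate-binding proteins (Gbp) and the immunity-related GTPases (IRG), and transcription factors and nucleic acid sensors that both interferons induce. They were chosen by gene symbol from a list of 45 names, and 44 of these are among the 21899 genes of the deposited table; Mx2 was not analysed here. The samples were livers of wild-type C57BL6J mice sampled after 6 weeks on a diet deficient in methionine and choline (MCD, 3 libraries) or on a sufficient one (MCS, 3 libraries), and polyA RNA was sequenced. The MCD diet is a dietary model of metabolic dysfunction-associated steatohepatitis, in which mice are known to lose weight, and the comparison asks how its liver transcriptome differs from that on the MCS diet. Age, sex and whether a library stands for 1 animal are not given in the labels, so each p-value reflects the spread between libraries, and that spread may be technical.

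Interferons are secreted cytokines that act through paired cell surface receptors, JAK kinases and STAT transcription factors. Type I interferons (alpha and beta) act on their target genes through the interferon-stimulated response element (ISRE), whereas interferon gamma, made mainly by T and NK cells, acts through the gamma-activated site (GAS). Many of the induced genes are transcribed by both routes, in hepatocytes as well as in macrophages, and their products block viral replication, destroy the vacuoles of intracellular pathogens or feed back on the pathway itself.

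Promoter windows in RefSeq (build GRCm38.p6; 250 bases before to 50 after a gene's start) matched 32 of the 44 genes by symbol. The windows were searched on both strands for an ISRE core, GAAANNGAAA, and for a GAS, TTCNNNGAA, and a gene was counted once whichever of its windows held a match. The ISRE core was found in 19 of 32 genes (59.4%), against 3.99% of all 27025 genes with a window, and the GAS in 11 of 32 (34.4%), against 9.55% of all. The windows of 6 genes on which the results turn are shown, with matches to either motif in capitals, since these genes differ in how they responded to the diet and each holds at least 1 match. Gbp2 (chr3:142620413-142620712, plus strand), Oas1a (chr5:120907476-120907775, minus strand) and Irf8 (chr8:120736108-120736407, plus strand) rose on the MCD diet, Igtp (chr11:58199306-58199605, plus strand) and Irgm2 (chr11:58214727-58215026, plus strand) fell, and Isg15 (chr4:156200769-156201068, minus strand) did not pass the test.
Gbp2: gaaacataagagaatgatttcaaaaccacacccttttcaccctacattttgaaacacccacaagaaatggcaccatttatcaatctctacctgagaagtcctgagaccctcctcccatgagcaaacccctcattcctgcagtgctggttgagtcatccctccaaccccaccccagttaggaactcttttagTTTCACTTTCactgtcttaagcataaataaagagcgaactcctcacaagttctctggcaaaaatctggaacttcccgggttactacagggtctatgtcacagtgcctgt
Oas1a: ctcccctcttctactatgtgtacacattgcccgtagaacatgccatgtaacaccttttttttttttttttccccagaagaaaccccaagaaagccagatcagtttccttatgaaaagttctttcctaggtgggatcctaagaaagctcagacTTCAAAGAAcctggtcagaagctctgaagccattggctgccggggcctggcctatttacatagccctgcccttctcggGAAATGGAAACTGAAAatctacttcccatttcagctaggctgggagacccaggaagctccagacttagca
Irf8: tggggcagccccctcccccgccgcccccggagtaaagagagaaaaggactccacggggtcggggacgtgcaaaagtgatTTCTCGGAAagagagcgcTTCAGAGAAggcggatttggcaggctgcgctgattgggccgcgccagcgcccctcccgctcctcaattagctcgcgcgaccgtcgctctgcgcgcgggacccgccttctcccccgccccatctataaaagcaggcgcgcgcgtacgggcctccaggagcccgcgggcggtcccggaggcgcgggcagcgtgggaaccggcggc
Igtp: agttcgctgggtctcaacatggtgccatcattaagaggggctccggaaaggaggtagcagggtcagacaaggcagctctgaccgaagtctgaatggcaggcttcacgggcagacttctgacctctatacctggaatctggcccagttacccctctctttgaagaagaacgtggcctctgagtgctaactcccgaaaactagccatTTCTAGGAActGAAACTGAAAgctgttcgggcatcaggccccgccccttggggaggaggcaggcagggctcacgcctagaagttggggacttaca
Irgm2: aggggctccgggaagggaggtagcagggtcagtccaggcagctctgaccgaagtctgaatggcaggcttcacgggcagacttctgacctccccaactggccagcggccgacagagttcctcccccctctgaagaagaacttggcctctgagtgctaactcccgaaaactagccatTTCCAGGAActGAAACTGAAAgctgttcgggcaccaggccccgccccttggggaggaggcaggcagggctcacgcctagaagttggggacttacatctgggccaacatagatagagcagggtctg
Isg15: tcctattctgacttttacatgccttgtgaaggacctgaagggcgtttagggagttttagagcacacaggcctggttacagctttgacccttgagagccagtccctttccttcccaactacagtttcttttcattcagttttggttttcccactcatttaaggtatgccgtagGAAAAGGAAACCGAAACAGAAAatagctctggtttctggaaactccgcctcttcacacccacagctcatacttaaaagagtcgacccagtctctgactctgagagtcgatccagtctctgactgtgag
The capitals of Gbp2 are 1 ISRE core read on the opposite strand, and those of Isg15 are 3 overlapping ISRE cores. In Oas1a a GAS stands upstream of 2 overlapping ISRE cores, and in Irf8 both matches are GAS. Igtp and Irgm2 each hold a GAS followed closely by an ISRE core, and with an offset of 30 bases their windows have the same base at 184 of 270 positions (68.1%). Among the genes with a window, 4 of 8 that rose, 2 of 4 that fell and 13 of 20 that did not pass held the ISRE core. By family, 4 of 7 Ifit, Oas and Mx genes and 7 of 8 Gbp and IRG genes held it. The GAS was found in 2 of these 7 and 4 of these 8, so neither motif marked 1 group alone. A match is a description of these letters and not a measured binding site.

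All 44 genes had enough counts to be tested for a difference between the diets, with edgeR's quasi-likelihood test and Benjamini-Hochberg adjustment over 12599 genes. On the MCD diet 9 of 44 rose at an adjusted p under 0.05 (20.5%), against 14.8% of all tested genes, and 5 of 44 fell (11.4%), against 9.97% of all tested genes. Both shares were thus near those of the liver transcriptome as a whole. The genes that rose were Ifit2, Ifi204, Irf8, Gbp2, Oas3, Oasl2, Trim30a, Samd9l and Oas1a, and those that fell were Irf9, Dhx58, Igtp, Irf7 and Irgm2. The median log2 fold change of MCD over MCS was 0.19 over the 44 genes and 0.01 over all tested genes, and single genes ran from −0.79 to 2.16. The diets were separated without overlap for 10 genes that were higher and 8 that were lower in the MCD libraries, whereas 23.9% and 21.3% of all tested genes were separated in these directions. Total counts per library were 18443357 to 21285045 in the MCD and 16615469 to 21322771 in the MCS libraries. Levels in CPM are counts scaled to the library size, itself scaled by TMM, and 3 counts correspond to 0.104 to 0.227 CPM.

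**Figure D1:**
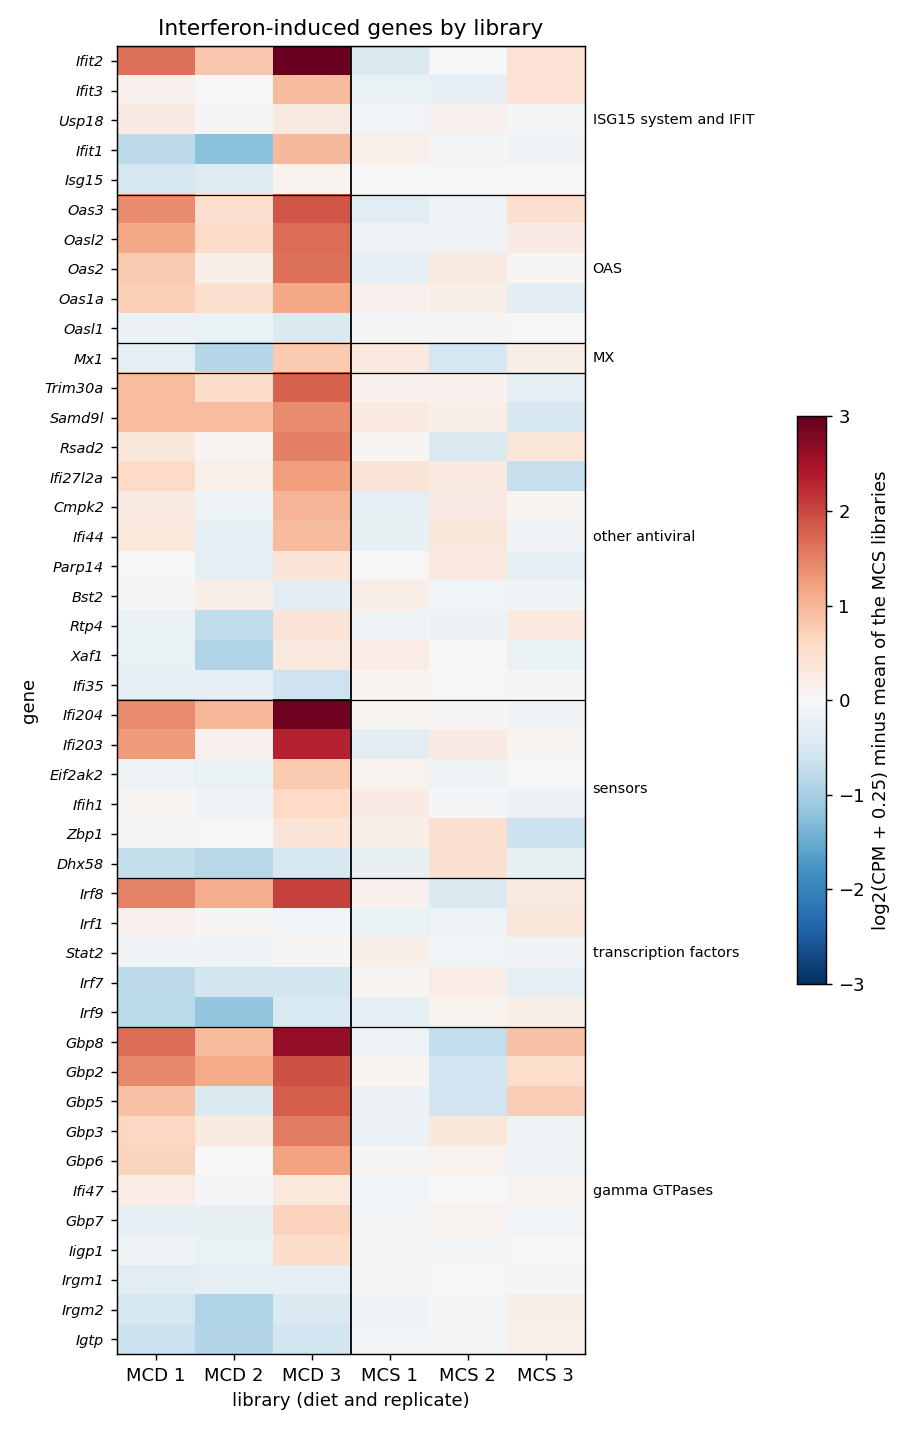
Heat map of the 44 interferon-induced genes (rows, grouped by role) in the 6 libraries (columns, MCD left of MCS), coloured by log2(CPM + 0.25) minus the mean of the MCS libraries. MCD replicate 3 is the highest of the MCD libraries for 39 of 44 genes, while Igtp, Irf7 and Irf9 are lower in every MCD library than in any MCS library.

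The MCD libraries differed among themselves. MCD replicate 3 was the highest of the 3 for 39 of 44 genes, compared with 42.4% of all tested genes, and MCD replicate 2 was the lowest for 34 of 44, compared with 39.2% of all. The level in MCD replicate 3 was a median of 1.73 times the mean of MCD replicates 1 and 2 over the 44 genes and 1.0 times over all tested genes. Without MCD replicate 3, 6 genes rose and 6 fell, Ifit1 joining those that fell, beside 11.7% and 8.01% of all tested genes. Without MCD replicate 2, 14 rose and 5 fell, beside 18.2% and 15.9%, and without MCD replicate 1, 5 rose and 1 fell, beside 8.12% and 3.35%. Without MCS replicate 1, 3 rose and 2 fell, beside 7.27% and 3.33%. Without MCS replicate 2, 2 rose and 1 fell, beside 7.22% and 3.05%, and without MCS replicate 3, 7 rose and 3 fell, beside 11.0% and 6.95%. Irf8, Gbp2 and Igtp passed in all 6 of these fits.

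The direction of change also rested on how the libraries were scaled. With library size alone the median of all genes was 0.57 on the log2 scale, and 18 of the 44 genes were called as higher and 0 as lower on the MCD diet (26 and 0 at an unadjusted p under 0.05), beside 40.4% and 2.76% of all tested genes. On log2(TPM + 1) 19 genes were called higher and on log2(TPM + 0.1) 20, beside 44.0% and 46.2% of all genes tested there, and 0 lower on either scale, beside 2.07% and 2.15%. Settings that kept TMM or a like scaling gave smaller shifts. DESeq2 called 11 genes higher and 5 lower, beside 14.2% and 11.0% of all genes. By limma-voom 5 were higher and 4 lower, beside 11.7% and 9.61%. With RLE size factors 9 and 5 were called, beside 14.5% and 10.4%, and without a count filter 10 and 5, beside 11.4% and 7.79%. In the authors' deposited table, whose fold changes are ratios of mean TPM, 21 of the 44 genes had a false discovery rate under 0.05 with a higher value on the MCD diet and 0 with a lower one, beside 34.1% of the tested genes with a higher and 1.91% with a lower value. The changes given here are therefore relative to the bulk of the liver's transcripts.

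**Figure D2:**
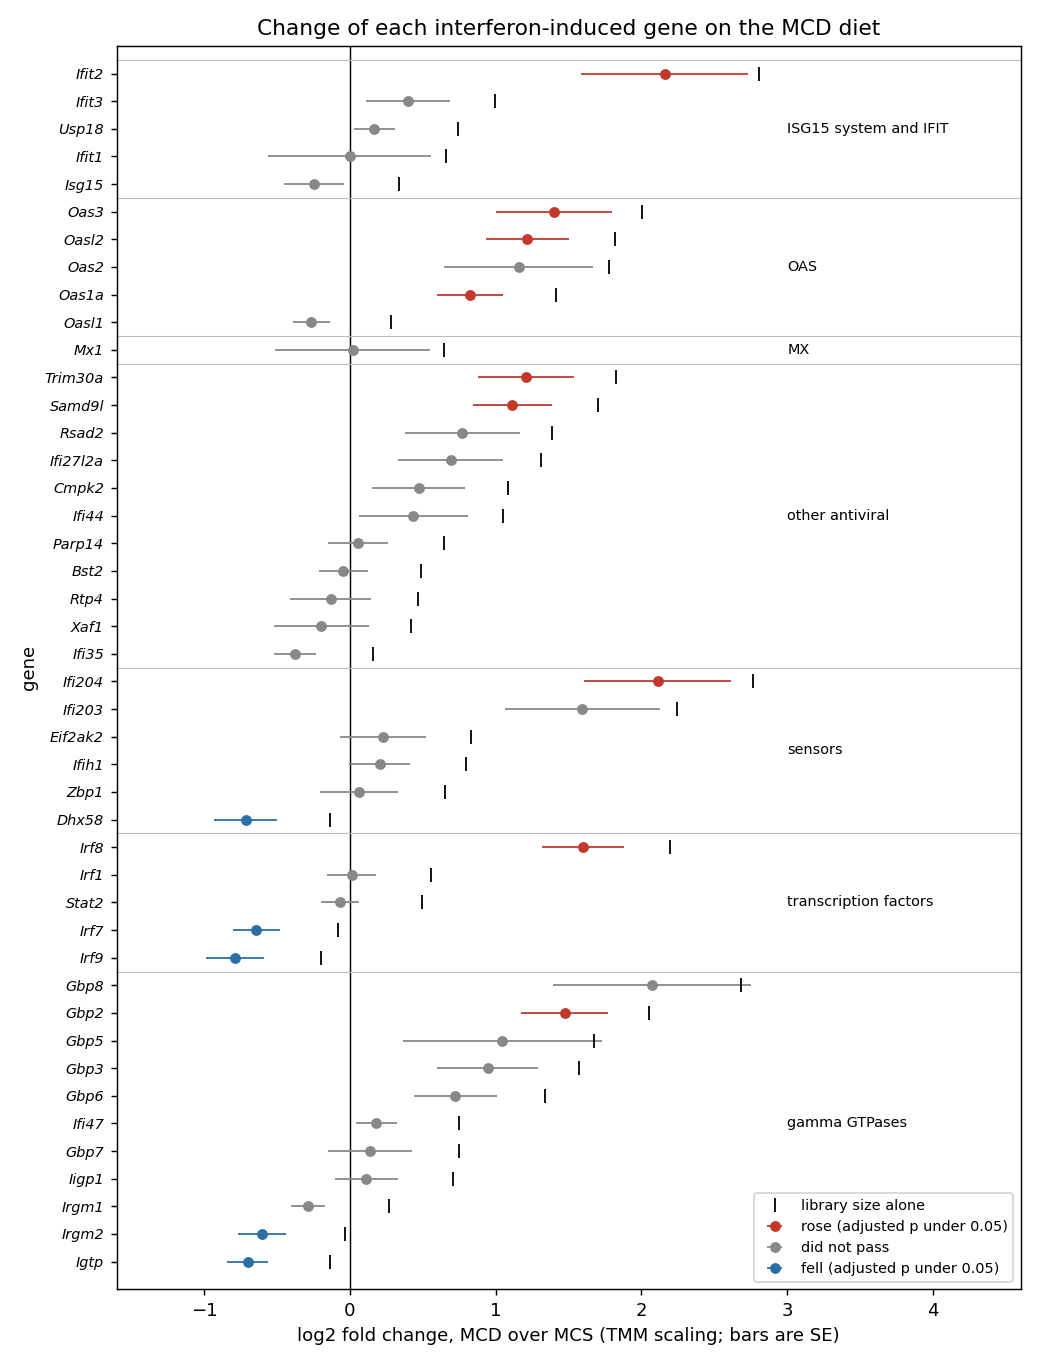
Log2 fold change of MCD over MCS for each of the 44 genes (points with SE bars, TMM scaling), grouped by role, with the value under library size alone as a black tick. Ifit2 has the highest value (2.16) and Irf9 the lowest (−0.79), and the ticks of all 44 genes lie to the right of their points.

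Markers of cell types were set beside these genes, and their lists differed in direction. All 10 markers of recruited macrophages, Lyz2, Itgam and Ccr2 among them, rose, beside 14.8% of all tested genes. Their summed level in TPM, a measure scaled per transcript length, was 2230, 1229 and 4906 TPM in MCD replicates 1 to 3, against 158, 152 and 171 TPM in MCS replicates 1 to 3. In CPM it was 1753, 1174 and 3235 in the MCD libraries, against 172.5, 172.7 and 177.7 in the MCS libraries. Of the MCD libraries, replicate 3 was highest and replicate 2 lowest here as well. Among resident Kupffer cell markers 2 of 6 fell (33.3%, beside 9.97% of all tested genes), Clec4f and Timd4. Of these 6 markers 0 fell without MCS replicate 2 and 1 without MCD replicate 1 or MCS replicate 1 or 3. Their sum was 223, 370 and 390 CPM in MCD replicates 1 to 3, against 291, 330 and 367 CPM in MCS replicates 1 to 3, and thus overlapped. In TPM it ran from 249.9 to 521 in MCD and from 197 to 266 in MCS libraries. Among T and NK cell markers Cd3e and Cd8a rose, 2 of the 9 tested (22.2%, beside 14.8% of all tested genes). Both calls rest on low counts, with 4, 1 and 5 for Cd3e and 8, 1 and 4 for Cd8a in MCS replicates 1 to 3. All 14 listed markers summed to 13.1, 7.20 and 31.7 TPM in MCD replicates 1 to 3, against 3.30, 4.82 and 7.37 TPM in MCS replicates 1 to 3. In CPM the sums were 8.99, 5.66 and 17.7 in the MCD libraries, against 5.06, 5.89 and 7.94 in the MCS libraries. Of the 9, 7 had a positive log2 fold change. Cd4 (−1.20 ± 0.53, adjusted p = 0.124) and Cd3d (−0.40 ± 0.84, adjusted p = 0.757) had a negative one and did not pass. By limma-voom 0 of the T and NK cell markers were called higher, and with 1 library left out 3 were without MCD replicate 2 and 0 in the other 5 fits. Without MCD replicate 3, 1 was called lower. Of 7 plasmacytoid dendritic cell markers 2 could be tested and 1 rose, Ly6d, with 6236 counts summed over the MCD and 312 over the MCS libraries. The defining Siglech and Ccr9 had only 54 and 25 counts summed over the MCD and 11 and 2 over the MCS libraries. The level of Ly6d was thus far above theirs, and whether its transcripts came from these cells was not tested.

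Among the remaining lists 4 of 5 cholangiocyte (80.0%), 1 of 6 stellate cell (16.7%) and 1 of 5 conventional dendritic cell markers (20.0%) rose, beside 14.8% of all tested genes. The cholangiocyte markers that rose numbered 2 without MCD replicate 1 or MCS replicate 1 or 3 and 1 without MCS replicate 2. The stellate cell markers that rose numbered 4 without MCD replicate 2, 3 by DESeq2, and 0 by limma-voom and without MCD replicate 1 or 3 or MCS replicate 1 or 2. Of the sinusoidal endothelial markers 0 of 6, and of the B cell markers 0 of 2, were called by edgeR, by limma-voom or by DESeq2 or had an unadjusted p under 0.05. The endothelial markers summed to 40.6, 24.0 and 192 TPM in MCD replicates 1 to 3, against 35.8, 47.3 and 139 TPM in MCS replicates 1 to 3. In CPM their sums were 56.0, 43.5 and 221 in the MCD libraries, against 69.6, 100 and 287 in the MCS libraries. On both scales replicate 3 was far above the other libraries of its diet. The median ratio of MCD replicate 3 to the mean of MCD replicates 1 and 2 was 5.52 for these markers and 2.195 for the macrophage markers. Of the 6 hepatocyte markers 0 rose, 1 fell, Tat (16.7%, beside 9.97% of all tested genes), and 5 did not pass. Their median log2 fold change was −0.64, with 0 of 6 positive. The diets were separated for 4 of them, all lower on the MCD diet, beside 21.3% of all tested genes. DESeq2 called 4 of these markers lower, beside 11.0% of all genes. Their sum was 68980, 85060 and 51320 CPM in MCD replicates 1 to 3, against 69710, 68840 and 92500 CPM in MCS replicates 1 to 3. In TPM it was 70340 to 81680 in MCD and 50240 to 71390 in MCS libraries. MCD replicate 2 was the highest MCD library for all 6. The part that these cells have in the changes of the interferon-induced genes was not tested, and in bulk tissue fewer cells of a type and less RNA per cell cannot be told apart.

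The transcription factors of the pathway split. Irf8, which directs the development of monocytes, macrophages and dendritic cells, had 19.6, 14.8 and 29.2 CPM in MCD replicates 1 to 3, against 7.54, 5.06 and 8.27 CPM in MCS replicates 1 to 3, and all MCD libraries lay above all MCS libraries (log2 fold change 1.60 ± 0.28, adjusted p = 0.00576). Irf7, which amplifies type I interferon production, had 50.7, 60.0 and 59.9 CPM in the MCD libraries, against 91.1, 103 and 72.9 CPM in the MCS libraries. Irf9, the DNA-binding subunit of the ISRE-binding complex, had 28.8, 22.5 and 36.7 CPM in the MCD libraries, against 41.3, 54.3 and 56.6 CPM in the MCS libraries. For both the MCD libraries lay below the MCS libraries, and both fell (Irf7, log2 fold change −0.64 ± 0.16, adjusted p = 0.0222; Irf9, log2 fold change −0.79 ± 0.20, adjusted p = 0.0229). Irf1, an early target of interferon gamma, had 29.4, 27.8 and 25.6 CPM in the MCD libraries, against 23.6, 24.2 and 34.2 CPM in the MCS libraries (log2 fold change 0.01 ± 0.17, adjusted p = 0.964). Stat2, the partner of Irf9, had 28.8, 29.1 and 31.8 CPM in the MCD libraries, against 35.4, 29.5 and 29.2 CPM in the MCS libraries (log2 fold change −0.07 ± 0.13, adjusted p = 0.728). For both of these the diets overlapped. The call of Irf8 held in every fit with 1 library left out, with log2 fold changes from 1.295 (without MCD replicate 3) to 1.77 (without MCD replicate 2). Irf7 lost its call when MCD replicate 1 or MCS replicate 1 or 2 was left out (adjusted p between 0.0816 and 0.102). Irf9 lost its call when MCD replicate 1 or MCS replicate 2 or 3 was left out (adjusted p between 0.0640 and 0.0790), and with library size alone neither passed (−0.08 and −0.20 on the log2 scale).

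Sensors of foreign or misplaced nucleic acids also moved in both directions. Ifi204, a DNA-binding protein of the Ifi200 family that is abundant in macrophages, had 8.63, 6.38 and 24.9 CPM in MCD replicates 1 to 3, against 3.22, 3.17 and 2.87 CPM in MCS replicates 1 to 3. The MCD libraries lay above the MCS libraries, most of all MCD replicate 3 (log2 fold change 2.11 ± 0.50, adjusted p = 0.0215). With 1 library left out its log2 fold change was 1.28 (without MCD replicate 3) to 2.41 (without MCD replicate 2). Its relative Ifi203 had 5.53, 2.35 and 11.6 CPM in the MCD libraries, against 1.67, 2.57 and 2.26 CPM in the MCS libraries, with MCD replicate 2 inside the MCS range (log2 fold change 1.59 ± 0.53, adjusted p = 0.0576). Dhx58, an RNA helicase that tunes the signalling of its relatives Ifih1 and Rigi, fell to 12.6, 11.5 and 14.8 CPM in the MCD libraries, against 17.8, 28.6 and 17.7 CPM in the MCS libraries (log2 fold change −0.72 ± 0.21, adjusted p = 0.0398). Of the other sensors Zbp1, which binds left-handed nucleic acids and triggers necroptosis, had the highest level per transcript length, 36.2, 32.1 and 57.8 TPM in the MCD libraries, against 26.5, 31.9 and 16.0 TPM in the MCS libraries. Zbp1, Ifih1, a sensor of long double-stranded RNA, and Eif2ak2, a kinase that halts translation, overlapped between the diets, with log2 fold changes of 0.06 for Zbp1, 0.20 for Ifih1 and 0.22 for Eif2ak2 (adjusted p = 0.507 to 0.884). Ifi204 lost its call when MCS replicate 1, 2 or 3 was left out (adjusted p between 0.0558 and 0.0808). By limma-voom neither Ifi204 nor Dhx58 passed (adjusted p = 0.0886 for Ifi204 and 0.0580 for Dhx58). Dhx58 lost its call when MCD replicate 1 or MCS replicate 1 or 2 was left out (adjusted p between 0.0612 and 0.139), and with library size alone Dhx58 had −0.14 on the log2 scale and did not pass. The sum of 10 genes of the Ifi200 family rose (log2 fold change 1.81 ± 0.49, adjusted p = 0.0379), to a mean of 48.0 CPM on the MCD diet, against 13.8 CPM on the MCS diet.

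Among the type I effectors of the Isg15 and Ifit group 1 of 5 rose (20.0%, beside 14.8% of all tested genes). Ifit2, which like its relatives binds viral RNA, had 7.11, 3.89 and 18.2 CPM in MCD replicates 1 to 3, against 1.50, 2.12 and 2.92 CPM in MCS replicates 1 to 3. All MCD libraries lay above the MCS libraries, but MCD replicate 2 was close to the highest MCS library (log2 fold change 2.16 ± 0.57, adjusted p = 0.0295). Ifit1, the member of the family that recognises uncapped or incompletely capped RNA, had 4.77, 3.44 and 16.8 CPM in MCD replicates 1 to 3, against 9.38, 8.01 and 7.83 CPM in MCS replicates 1 to 3. MCD replicates 1 and 2 lay below and MCD replicate 3 above all MCS libraries, and its log2 fold change was −0.00 ± 0.56 (adjusted p = 0.998). It was −1.03 without MCD replicate 3 (adjusted p = 0.0174). Ifit3, a partner of Ifit1, had 21.8, 20.0 and 39.0 CPM in the MCD libraries, against 17.4, 16.9 and 27.0 CPM in the MCS libraries (log2 fold change 0.40 ± 0.29, adjusted p = 0.340). Isg15, a ubiquitin-like protein that is joined to newly made proteins, had 7.51, 8.14 and 11.6 CPM in the MCD libraries, against 10.6, 11.0 and 10.8 CPM in the MCS libraries (log2 fold change −0.24 ± 0.21, adjusted p = 0.409), and Usp18, which removes it and restrains the type I receptor, also did not pass (log2 fold change 0.17 ± 0.14, adjusted p = 0.405). The MCS libraries of Isg15 lay within 10.6 to 11.0 CPM, with MCD replicates 1 and 2 below and MCD replicate 3 above them. The call of Ifit2 was lost when MCD replicate 1 or MCS replicate 1 or 2 was left out (adjusted p between 0.0529 and 0.106). Its log2 fold change was 1.33 (without MCD replicate 3) to 2.50 (without MCD replicate 2) with 1 library left out, and limma-voom did not call it (log2 fold change 1.99, adjusted p = 0.113).

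The Oas family had the most calls of the type I families, with 3 of 5 members higher (60.0%, beside 14.8% of all tested genes). The count was 0 without MCS replicate 1 (beside 7.27% of all genes) or MCS replicate 2 (7.22%). It was 1 without MCD replicate 1 (8.12%) or MCD replicate 3 (11.7%), 2 without MCS replicate 3 (11.0%) and 4 without MCD replicate 2 (18.2%). Oas1a and Oas3 make the oligoadenylate messenger that activates the antiviral nuclease RNase L, and Oasl2 is a related protein. Oasl2 had 16.8, 11.0 and 24.5 CPM in MCD replicates 1 to 3, against 6.67, 6.95 and 8.88 CPM in MCS replicates 1 to 3, without overlap of the diets (log2 fold change 1.22 ± 0.28, adjusted p = 0.0167). Oas3 had 8.36, 4.34 and 11.8 CPM in the MCD libraries, against 2.36, 2.64 and 4.25 CPM in the MCS libraries, where MCD replicate 2 and MCS replicate 3 nearly touched (log2 fold change 1.40 ± 0.40, adjusted p = 0.0328). Oas1a had 14.0, 11.9 and 18.9 CPM in the MCD libraries, against 9.20, 9.52 and 6.68 CPM in the MCS libraries, a separation without overlap (log2 fold change 0.82 ± 0.23, adjusted p = 0.0298). Oas2 had the lowest level, 1.84, 1.13 and 3.55 CPM in the MCD libraries, against 0.748, 1.21 and 0.993 CPM in the MCS libraries, and MCD replicate 2 lay within the MCS libraries (log2 fold change 1.16 ± 0.51, adjusted p = 0.129). Oasl1, which in mice restrains the translation of Irf7, stood on the other side, with 22.4, 21.9 and 18.6 CPM in the MCD libraries, against 24.7, 26.0 and 24.8 CPM in the MCS libraries, every MCD library below every MCS library and a log2 fold change that did not pass (log2 fold change −0.26 ± 0.13, adjusted p = 0.164). The call of Oasl2 was lost when MCS replicate 1 or 2 was left out (adjusted p between 0.0676 and 0.0701). That of Oas3 was lost when MCD replicate 1 or 3 or MCS replicate 1 or 2 was left out (adjusted p between 0.0767 and 0.116), and Oas3 did not pass by limma-voom (adjusted p = 0.0840). That of Oas1a was lost when MCD replicate 1 or 3 or MCS replicate 1, 2 or 3 was left out (adjusted p between 0.0596 and 0.0855). Oas1a has close relatives between which reads can be divided, and the sum of Oas1a, Oas1c and Oas1g rose (log2 fold change 0.999 ± 0.197, adjusted p = 0.00898).

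Mx1 encodes a dynamin-like GTPase that traps incoming viruses, and many laboratory mouse strains carry a defective allele of it. It had 1.48, 0.905 and 3.34 CPM in MCD replicates 1 to 3, against 2.30, 1.21 and 2.15 CPM in MCS replicates 1 to 3. Its log2 fold change of 0.02 ± 0.53 (adjusted p = 0.983) was that of overlapping diets, and it was −0.67 without MCD replicate 3. MCD replicate 3 was above, MCD replicate 1 within and MCD replicate 2 below the MCS libraries.

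Of 11 further antiviral genes 2 rose (18.2%, beside 14.8% of all tested genes), Trim30a and Samd9l, and 9 did not pass. Samd9l, a cytoplasmic restriction factor, had 9.49, 9.37 and 13.4 CPM in MCD replicates 1 to 3, against 5.98, 5.52 and 3.42 CPM in MCS replicates 1 to 3 (log2 fold change 1.12 ± 0.27, adjusted p = 0.0187). Trim30a, a tripartite motif protein that dampens Toll-like receptor signalling in mice, had 8.86, 6.88 and 16.2 CPM in the MCD libraries, against 5.06, 5.06 and 3.75 CPM in the MCS libraries (log2 fold change 1.21 ± 0.33, adjusted p = 0.0294). For both, each MCD library was above each MCS library. Bst2, or tetherin, which holds budding virus particles at the cell surface, had the highest level per transcript length of all 44 genes, 167, 168 and 166 TPM in the MCD libraries, against 124, 99.9 and 106 TPM in the MCS libraries. On the count scale Bst2 had 61.0, 73.2 and 50.6 CPM in the MCD libraries, against 72.7, 60.1 and 57.9 CPM in the MCS libraries, a difference that did not pass (log2 fold change −0.05 ± 0.17, adjusted p = 0.865), and the 2 scales differ in how the libraries are made comparable. Rsad2 (viperin) and its neighbour Cmpk2, enzymes of antiviral nucleotide metabolism, had log2 fold changes of 0.77 for Rsad2 and 0.47 for Cmpk2 that did not pass (adjusted p = 0.184 and 0.305). MCD replicate 3 of Rsad2 had 18.3 CPM, and its other libraries lay between 4.61 and 8.16 CPM. Parp14, an ADP-ribosyltransferase, the transmembrane chaperone Rtp4, and Xaf1, Ifi44 and Ifi35 had log2 fold changes between −0.38 for Ifi35 and 0.43 for Ifi44, with adjusted p from 0.0823 to 0.874. Ifi27l2a had 10.5, 7.56 and 16.6 CPM in the MCD libraries, against 8.97, 8.46 and 4.14 CPM in the MCS libraries (log2 fold change 0.69 ± 0.36, adjusted p = 0.190), and the sum of Ifi27l2a and its relative Ifi27l2b rose (log2 fold change 2.13 ± 0.30, adjusted p = 0.00265), to a mean of 72.8 CPM on the MCD diet, against 16.7 CPM on the MCS diet. Ifi27l2a alone had means of 11.55 CPM on the MCD and 7.19 CPM on the MCS diet. Most of the sum was thus Ifi27l2b, which is outside the 44 genes. Samd9l lost its call when MCS replicate 2 was left out (adjusted p = 0.0569). Trim30a lost its call when MCD replicate 1 or 3 or MCS replicate 1, 2 or 3 was left out (adjusted p between 0.0569 and 0.0897), and its log2 fold change was 0.77 (without MCD replicate 3) to 1.41 (without MCD replicate 2) with 1 library left out. Trim30a did not pass by limma-voom either (adjusted p = 0.0712). The sum of 4 Trim30 genes did not pass (log2 fold change 0.64 ± 0.29, adjusted p = 0.138).

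**Figure D3:**
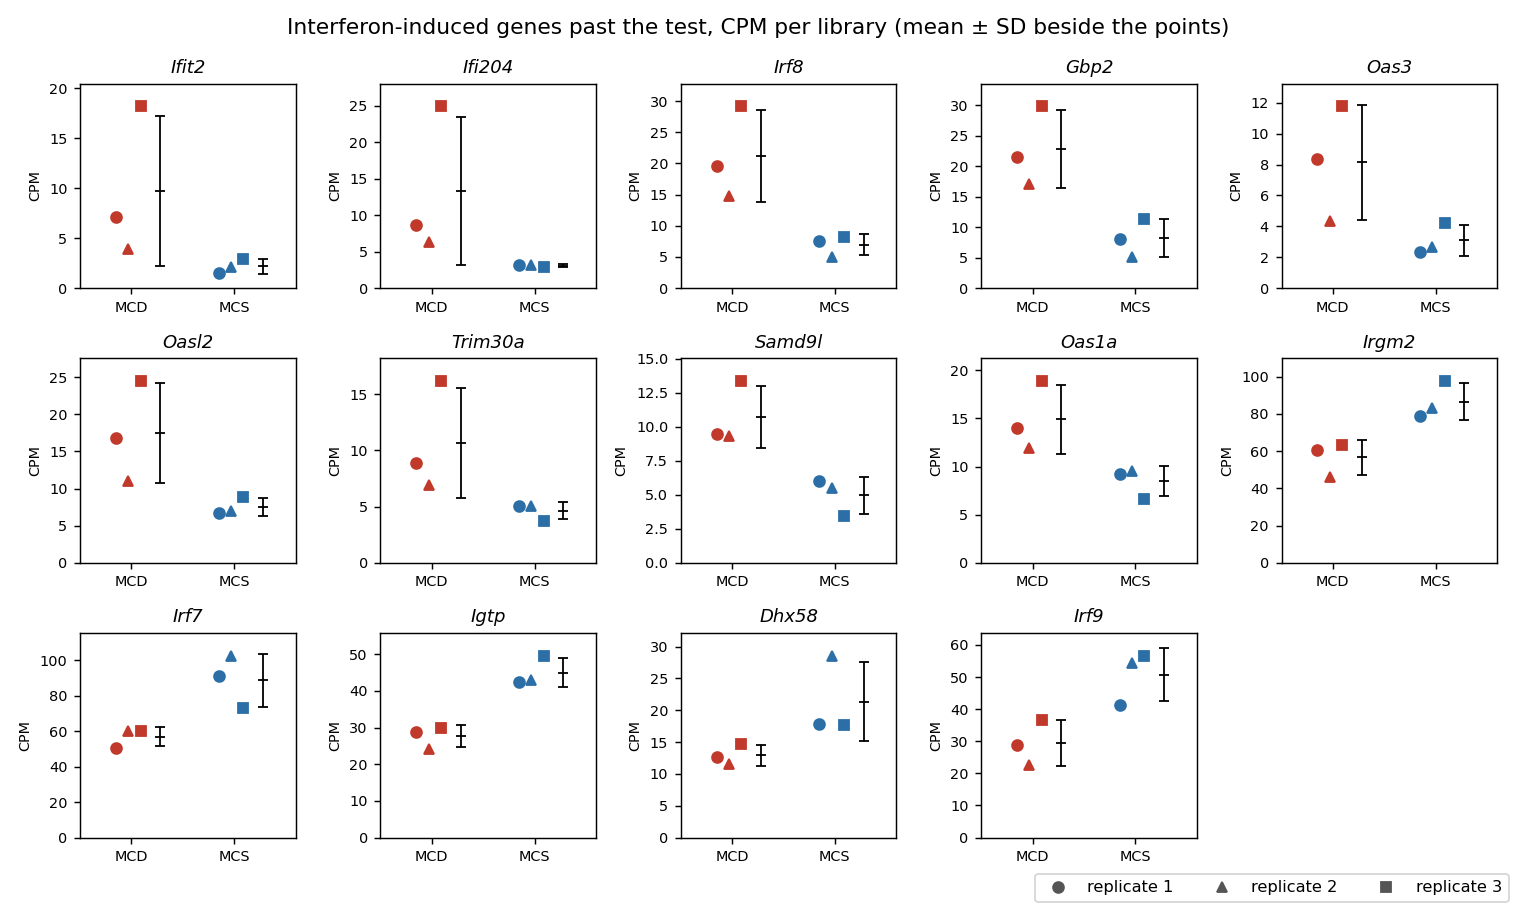
CPM in every library for the 14 interferon-induced genes that passed the test, ordered by log2 fold change, with MCD left of MCS, a symbol for each replicate and the mean ± SD beside the points (n = 3). In each panel the diets do not overlap, and in the 9 panels of genes that rose MCD replicate 3 is the highest point.

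Of the 11 GTPases induced by interferon gamma 1 rose (9.09%, beside 14.8% of all tested genes), 2 fell (18.2%, beside 9.97%) and 8 did not pass. Gbp proteins coat and open the vacuoles of intracellular pathogens, Iigp1 and Ifi47 are IRG effectors that act on the same membranes, and Irgm1, Irgm2 and Igtp are IRG regulators that guard the cell's own membranes. Gbp2 rose, with 21.5, 17.1 and 29.9 CPM in MCD replicates 1 to 3, against 8.11, 5.14 and 11.3 CPM in MCS replicates 1 to 3 and no overlap (log2 fold change 1.47 ± 0.30, adjusted p = 0.0107). Gbp8 had 2.29, 1.27 and 4.67 CPM in the MCD libraries, against 0.460, 0.227 and 1.21 CPM in the MCS libraries, again without overlap, but it did not pass (log2 fold change 2.07 ± 0.68, adjusted p = 0.0539). Gbp3, Gbp5 and Gbp6 had log2 fold changes of 0.94, 1.05 and 0.72, and in each of them MCD replicate 2 lay within the range of the MCS libraries. Gbp7 had the lowest value of the 6 (log2 fold change 0.14 ± 0.29, adjusted p = 0.751). In the 5 Gbp genes other than Gbp2 the adjusted p ranged from 0.0539 to 0.751, so 1 of 6 rose (16.7%, near the 14.8% of all tested genes). The call of Gbp2 held in every fit with 1 library left out, with log2 fold changes of 1.22 (without MCS replicate 2) to 1.77 (without MCS replicate 3), while Gbp8 passed with DESeq2, without a count filter, with library size alone, on both TPM scales and with MCD replicate 2 or MCS replicate 3 left out (adjusted p between 0.0145 and 0.0416).

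Of the 3 IRG regulators 2 fell, beside 9.97% of all tested genes. Igtp had 28.8, 24.2 and 30.0 CPM in MCD replicates 1 to 3, against 42.5, 42.9 and 49.5 CPM in MCS replicates 1 to 3. Irgm2 had 60.8, 46.1 and 63.6 CPM in the MCD libraries, against 78.7, 83.0 and 97.7 CPM in the MCS libraries. Each MCD library of both genes lay below each MCS library, and both fell (Igtp, log2 fold change −0.70 ± 0.14, adjusted p = 0.00877; Irgm2, log2 fold change −0.61 ± 0.17, adjusted p = 0.0290). Irgm1 was separated in the same direction, with 48.1, 50.7 and 51.4 CPM in the MCD libraries, against 62.3, 62.0 and 59.2 CPM in the MCS libraries, but did not pass (log2 fold change −0.29 ± 0.12, adjusted p = 0.101). Iigp1, next after Bst2 per transcript length, had 115, 109 and 186 CPM in the MCD libraries, against 131, 121 and 128 CPM in the MCS libraries, where MCD replicate 3 alone was above the MCS libraries (log2 fold change 0.11 ± 0.21, adjusted p = 0.727). Ifi47 overlapped between the diets (log2 fold change 0.18 ± 0.14, adjusted p = 0.367). Igtp held its call in every fit with 1 library left out, with log2 fold changes of −0.76 (without MCD replicate 3) to −0.64 (without MCS replicate 3), and Irgm2 lost its call when MCD replicate 1 or MCS replicate 1, 2 or 3 was left out (adjusted p between 0.0648 and 0.0779). With library size alone neither passed, with log2 fold changes of −0.14 for Igtp and −0.03 for Irgm2.

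The 9 Ifit, Oas and Mx genes and the 11 gamma GTPases were set side by side. Of the Ifit, Oas and Mx genes 4 of 9 rose and 5 did not pass, with a median log2 fold change of 0.82, and of the GTPases 1 of 11 rose, 2 fell and 8 did not pass, with a median of 0.18. Of all tested genes 14.8% rose and 9.97% fell, and their median was 0.01. Per library, the median over the Ifit, Oas and Mx genes of log2(CPM + 0.25) minus the MCS mean was 0.72, 0.18 and 1.15 in MCD replicates 1 to 3, against −0.15, −0.06 and 0.21 in MCS replicates 1 to 3. The same quantity for the GTPases was 0.23, −0.21 and 0.68 in the MCD libraries, against −0.08, −0.05 and 0.10 in the MCS libraries. In each MCD library the Ifit, Oas and Mx genes thus stood higher than the GTPases, by 0.49, 0.39 and 0.47 on the log2 scale, and the MCS libraries differed by −0.07, −0.01 and 0.11. MCD replicate 3 was the highest and MCD replicate 2 the lowest MCD library in both groups. With 1 library left out, the Ifit, Oas and Mx genes that rose numbered 1 without MCD replicate 1, 2 without MCD replicate 3 and 0 without MCS replicate 1 or MCS replicate 2. Of all genes tested in these fits 8.12% rose without MCD replicate 1, 11.7% without MCD replicate 3, 7.27% without MCS replicate 1 and 7.22% without MCS replicate 2. In each of these fits 1 GTPase rose. Without MCD replicate 2, 5 Ifit, Oas and Mx genes and 4 GTPases rose, beside 18.2% of all genes. Without MCS replicate 3, 3 Ifit, Oas and Mx genes and 2 GTPases rose, beside 11.0%.

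The GTPases were also divided, after their values were seen, into the 6 Gbp and 5 IRG genes. The median of the Gbp genes was 0.77, 0.13 and 1.69 in MCD replicates 1 to 3, against −0.09, −0.23 and 0.22 in MCS replicates 1 to 3. That of the IRG genes was −0.34, −0.27 and −0.25 in the MCD libraries, against −0.08, −0.05 and 0.10 in the MCS libraries. The median of the Gbp genes was highest in MCD replicate 3 and lowest in MCD replicate 2, which was also the order of the summed macrophage, endothelial, stellate cell, cholangiocyte and T and NK cell markers. The median of the IRG genes differed little between the MCD libraries, but MCD replicate 3 was the highest of them for all 5 genes, whose sum was 279, 252 and 358 CPM in MCD replicates 1 to 3, against 335, 331 and 358 CPM in MCS replicates 1 to 3. All 6 Gbp genes had a positive log2 fold change (median 0.99), and 2 of 5 IRG genes had one (median −0.29). No test of a difference between these groups was made, because their members were chosen with results of these data known.

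**Figure D4:**
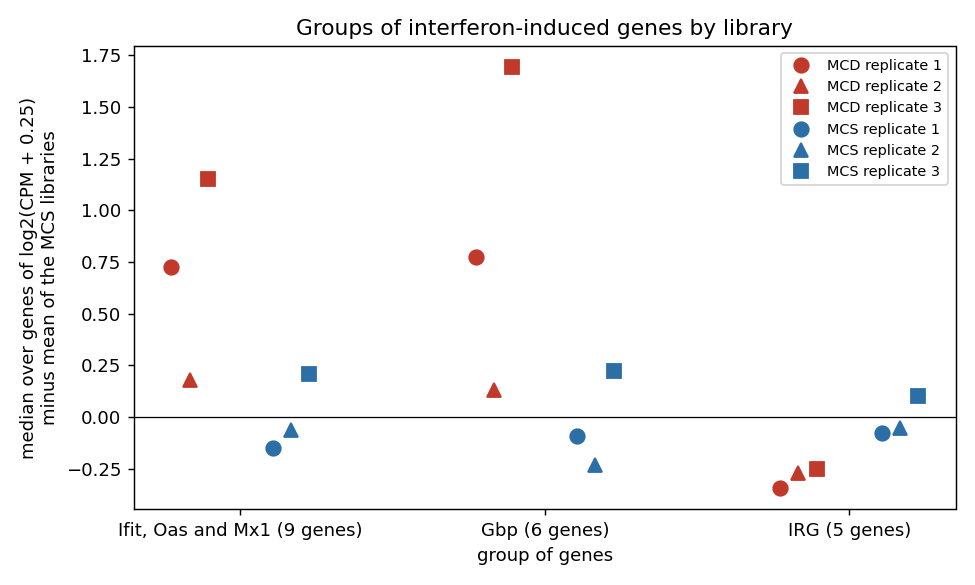
Median over the genes of each group of log2(CPM + 0.25) minus the mean of the MCS libraries (vertical axis) in each library, for the 9 Ifit, Oas and Mx1 genes, the 6 Gbp genes and the 5 IRG genes, MCD left of MCS. MCD replicate 3 reaches 1.15 and 1.69 in the first 2 groups, and the MCD libraries of the IRG genes lie between −0.34 and −0.25.

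Transcripts of the interferons themselves were at or near 0. Ifnb1, the alpha interferon genes Ifna1, Ifna2, Ifna4, Ifna5 and Ifnab, Ifne, Ifnl2 and Ifnl3 had 0 counts in all 6 libraries, a level below 0.104 to 0.227 CPM per library (3 counts, counting error only). Ifng had 3 counts in the MCD and 2 in the MCS libraries, and Ifnk 2 and 0. Il12b, a subunit of the cytokine that elicits interferon gamma, had 5, 0 and 17 counts in MCD replicates 1 to 3 and 0 in the MCS libraries. A difference in interferon transcripts was not detectable at this depth. Il18, the other cytokine that elicits interferon gamma, was the only one of 14 ligands with enough counts for the test (log2 fold change −0.53 ± 0.24, adjusted p = 0.136).

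The receptors moved apart. Ifngr1, the ligand-binding chain of the interferon gamma receptor, had 33.1, 27.9 and 44.6 CPM in MCD replicates 1 to 3, against 14.6, 14.7 and 16.7 CPM in MCS replicates 1 to 3. Its partner Ifngr2 had 51.6, 53.9 and 57.1 CPM in the MCD libraries, against 29.9, 33.8 and 24.3 CPM in the MCS libraries. Both rose without overlap (Ifngr1, log2 fold change 1.20 ± 0.19, adjusted p = 0.00329; Ifngr2, log2 fold change 0.89 ± 0.15, adjusted p = 0.00461). Il10rb, a chain shared by the interleukin 10 and interferon lambda receptors, rose as well, with 28.2, 19.1 and 35.8 CPM in the MCD libraries, against 8.11, 8.76 and 10.3 CPM in the MCS libraries (log2 fold change 1.61 ± 0.23, adjusted p = 0.00248). Ifnar2, a chain of the type I receptor, fell to 53.9, 58.7 and 57.5 CPM in the MCD libraries, against 93.3, 99.3 and 89.0 CPM in the MCS libraries (log2 fold change −0.73 ± 0.13, adjusted p = 0.00540), and its partner Ifnar1 overlapped between the diets (log2 fold change −0.12 ± 0.13, adjusted p = 0.526). These 4 calls held in all 6 fits with 1 library left out, but with library size alone Ifnar2 did not pass (−0.17 on the log2 scale). Of 9 tested kinases, STATs and inhibitors of the pathway 0 passed edgeR's test, with 4 at an unadjusted p under 0.05 (3 higher, 1 lower), 1 called lower by DESeq2 and 0 by limma-voom. With library size alone 6 of the 9 were called higher, beside 40.4% of all tested genes, and on both TPM scales also 6, beside 44.0% and 46.2%. Without MCD replicate 2, 2 of the 9 were called higher, and without MCS replicate 3, 1 was called lower.

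A list of 13 tested genes held sensors of nucleic acids, relays of the signal to interferon production and enzymes that act on nucleic acids or nucleotides. Of these 13, 6 rose (46.2%, beside 14.8% of all tested genes) and 2 fell (15.4%, beside 9.97%). Those that rose numbered 4 without MCD replicate 1 (beside 8.12% of all genes), MCS replicate 1 (7.27%) or MCS replicate 2 (7.22%). They numbered 5 without MCS replicate 3 (11.0%), 6 without MCD replicate 3 (11.7%) and 7 without MCD replicate 2 (18.2%). The endosomal receptor of single-stranded RNA Tlr7 had 4.14, 4.34 and 9.75 CPM in MCD replicates 1 to 3, against 1.32, 0.907 and 0.883 CPM in MCS replicates 1 to 3 (log2 fold change 2.54 ± 0.43, adjusted p = 0.00504). Tlr9, the receptor of unmethylated DNA, had 3.24, 1.54 and 4.95 CPM in the MCD libraries, against 0.403, 0.151 and 0.938 CPM in the MCS libraries (log2 fold change 2.65 ± 0.65, adjusted p = 0.0207). Sting1, the adaptor of cytosolic DNA sensing, rose (log2 fold change 1.82 ± 0.37, adjusted p = 0.0104). So did the kinase Ikbke (log2 fold change 1.02 ± 0.16, adjusted p = 0.00359), the transcription factor Irf5, which is active in macrophages (log2 fold change 1.25 ± 0.20, adjusted p = 0.00352), and Samhd1, a nucleotide hydrolase (log2 fold change 0.84 ± 0.22, adjusted p = 0.0272). Mavs, the mitochondrial adaptor of the RNA helicases, fell to 55.9, 67.1 and 36.6 CPM in the MCD libraries, against 97.9, 95.8 and 124 CPM in the MCS libraries (log2 fold change −0.99 ± 0.22, adjusted p = 0.0149), and Irf3, the factor it activates, fell by 0.56 on the log2 scale (SE 0.16, adjusted p = 0.0315). The call of Tlr9 was lost when MCD replicate 1 or MCS replicate 1 or 2 was left out (adjusted p between 0.0603 and 0.0808). That of Mavs was lost when MCD replicate 1 was left out (adjusted p = 0.0521), and that of Irf3 when MCD replicate 1 or MCS replicate 1, 2 or 3 was left out (adjusted p between 0.0707 and 0.103). Samhd1 lost its call when MCD replicate 1 or MCS replicate 1, 2 or 3 was left out (adjusted p between 0.0559 and 0.0981). With library size alone neither Mavs nor Irf3 passed (−0.48 and −0.03 on the log2 scale).

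**Figure D5:**
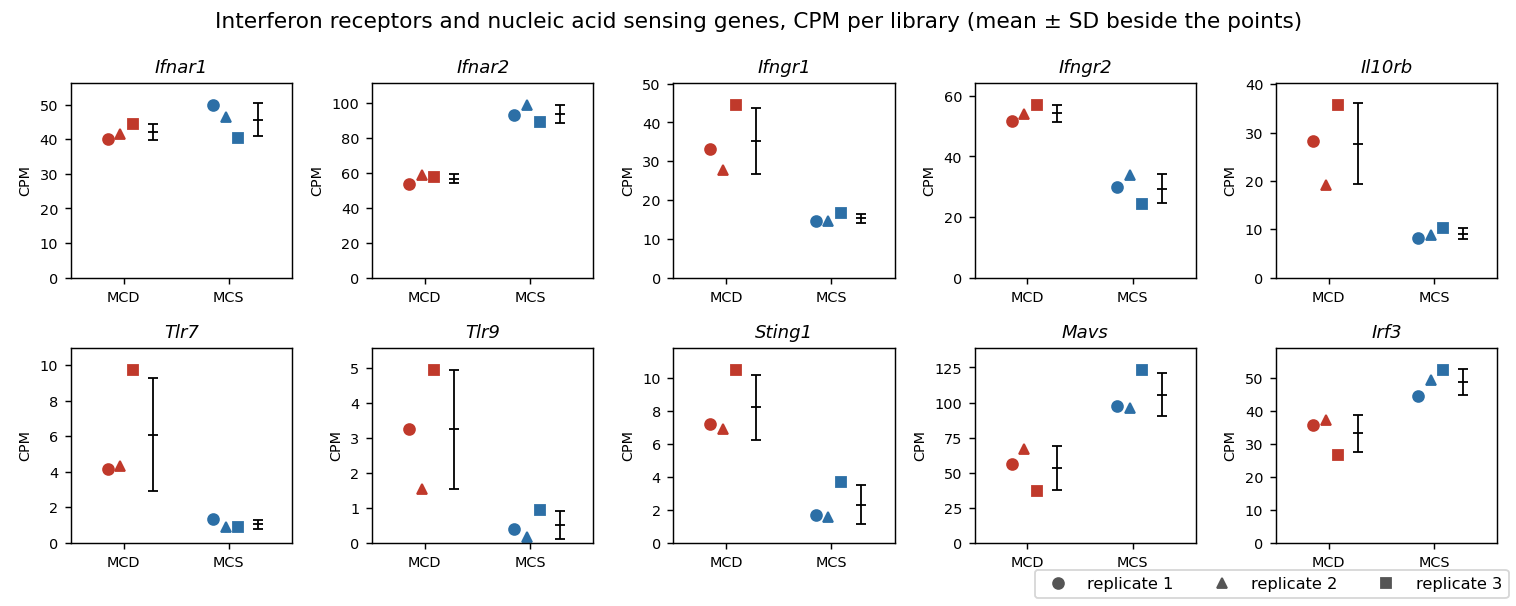
CPM in every library for 5 receptor genes, Tlr7, Tlr9, Sting1, Mavs and Irf3, with MCD left of MCS, a symbol for each replicate and the mean ± SD beside the points (n = 3). Ifnar2, Mavs and Irf3 are lower in every MCD library than in any MCS library, and Ifngr1, Ifngr2, Il10rb, Tlr7, Tlr9 and Sting1 are higher.

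Among 34 further interferon-induced genes, relatives of the 44 genes among them, 11 rose (32.4%), beside 14.8% of all tested genes. Of the 34, 0 fell, beside 9.97% of all tested genes, and 23 did not pass, and the median log2 fold change was 0.29. At an unadjusted p under 0.05, 13 of the 34 were higher and 3 lower. DESeq2 called 10 higher and 2 lower, beside 14.2% and 11.0% of all genes. By limma-voom 6 were higher and 0 lower, beside 11.7% and 9.61%. With library size alone 17 of the 34 were higher, beside 40.4% of all tested genes. The called genes with the smallest p were Tgtp1, Ciita and Gbp9. Tgtp1, an IRG effector, had 27.3, 19.2 and 34.9 CPM in MCD replicates 1 to 3, against 8.86, 8.76 and 9.38 CPM in MCS replicates 1 to 3 (log2 fold change 1.59 ± 0.22, adjusted p = 0.00194). Ciita, the master activator of MHC class II genes, had 8.09, 4.48 and 10.8 CPM in the MCD libraries, against 2.01, 1.13 and 1.99 CPM in the MCS libraries (log2 fold change 2.17 ± 0.39, adjusted p = 0.00618), and Gbp9 had 9.89, 5.70 and 15.1 CPM in the MCD libraries, against 1.90, 1.96 and 3.37 CPM in the MCS libraries (log2 fold change 2.08 ± 0.40, adjusted p = 0.00790). These 3 calls held in every fit with 1 library left out. The count of 11 was 4 without MCD replicate 1 (beside 8.12% of all genes), 12 without MCD replicate 2 (18.2%) and 7 without MCD replicate 3 (11.7%). It was 3 without MCS replicate 1 (7.27%), 4 without MCS replicate 2 (7.22%) and 5 without MCS replicate 3 (11.0%). Tgtp1 and Gbp9 belong to the GTPase families described above and rose, while Gbp10 did not pass (log2 fold change 0.01 ± 0.28, adjusted p = 0.982). Ciita and Tgtp1 were, like Gbp2 and Irf8, highest in MCD replicate 3 and lowest among the MCD libraries in MCD replicate 2.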

How the data were processed

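Counts and TPM per gene were deposited for 6 libraries, which were grouped by the diet in their titles. Per the submitters' processing notes reads were handled with RSEM, StringTie 1.3.1, HISAT2 2.1.0, Bowtie2 2.2.8 and fastp 0.18.0 on GRCm39, in roles the notes leave out; the labels do not say whether strand was kept. The deposited counts are whole, yet 64 entries hold a count of 0 beside a positive TPM, and they were taken for estimated counts that had been rounded. The deposited TPM values were scaled by the authors to 1 total per library, which keeps no depth. The deposited log2 fold change, p-value and FDR are the authors' own, by a test not given in the sources used here.

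Counts were analysed in R 4.3.3 with edgeR 4.0.16 (TMM, filterByExpr with a minimum count of 10, robust quasi-likelihood fit with diet as its only term); 12599 of 21899 genes were tested, with a call where the p adjusted by Benjamini-Hochberg was under 0.05. Values after ± beside a log2 fold change are SE. Alternatives used DESeq2 1.42.0, limma 3.58.1 (voom, and TPM with a pseudocount of 1 or 0.1 for genes with a mean of at least 0.5), other scalings, no filter, a replicate block and each library left out. The fit was tested on simulated counts. Members and lists were chosen with earlier results of these data known, and the rule named every member, with values per library for called and abundant ones. Of the pathway lists, from which 1 gene is not reported here, it named the 3 called genes with the smallest p; Ifnar1, Ifnar2, Tlr9, Sting1, Samhd1, Mavs, Irf3 and Gbp10 were named after their values were seen. A planned search for genes of like pattern is not given, since 6 libraries in 2 groups cannot support a correlation. RefSeq promoter windows are of build GRCm38.p6, so no coordinates were joined to the deposited table.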

Additional observations from a re-analysis of the deposited data

How the results depend on the processing

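Of 627 refits of single members, 473 kept direction and side of the threshold, 38 passed only there, 55 no longer passed and 61 changed sign. With 1 library left out, the members that rose numbered 2 to 14 and those that fell 1 to 6, the Ifit, Oas and Mx genes that rose 0 to 5 and the GTPases that rose 1 to 4. The members that rose numbered 18 with library size alone, 19 on log2(TPM + 1), 20 on log2(TPM + 0.1), 5 by limma-voom and 1 at an adjusted p under 0.01; those that fell numbered 0, 0 and 0 on the first 3 and 1 on the last. The Ifit, Oas and Mx genes that rose numbered 2 by limma-voom and 0 at an adjusted p under 0.01. The GTPases that rose numbered 5 with library size alone and on both TPM scales, 2 without a count filter, by DESeq2 and with a replicate block, and 0 at an adjusted p under 0.01. The medians of the Ifit, Oas and Mx genes were 1.42 with library size alone and 1.45 on log2(TPM + 0.1), and those of the GTPases 0.75 with library size alone and on log2(TPM + 1) and 0.84 on log2(TPM + 0.1). These scalings move the bulk of genes upward, by 0.57 with library size alone, 0.55 on log2(TPM + 1) and 0.65 on log2(TPM + 0.1).

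Where log2 fold changes changed sign, they were as follows. With library size alone they were Isg15 0.34, Ifit1 0.66, Oasl1 0.28, Bst2 0.48, Rtp4 0.47, Xaf1 0.42, Ifi35 0.16, Stat2 0.49 and Irgm1 0.27; on log2(TPM + 1) Isg15 0.38, Ifit1 0.31, Oasl1 0.38, Bst2 0.61, Rtp4 0.47, Xaf1 0.038, Ifi35 0.27, Irf7 0.060, Stat2 0.56, Irgm1 0.36, Irgm2 0.056 and Irf3 0.0076; on log2(TPM + 0.1) Isg15 0.39, Ifit1 0.30, Oasl1 0.39, Bst2 0.61, Rtp4 0.49, Xaf1 0.027, Ifi35 0.28, Irf7 0.060, Stat2 0.60, Irgm1 0.37, Irgm2 0.057 and Irf3 0.0079. They were Mx1 −0.0073 and Irf1 −0.0078 by DESeq2, Irf1 −0.0012 with RLE size factors, Mx1 −0.11 by limma-voom and Mx1 −0.10 with a replicate block. Summed with related genes, a setting chosen after seeing the data, they were Ifit1 0.015 and Iigp1 −0.038. With 1 library left out the ranges were Ifit1 −1.03 to 0.33, Mx1 −0.67 to 0.32, Bst2 −0.22 to 0.079, Rtp4 −0.47 to 0.077, Xaf1 −0.53 to 0.039, Parp14 −0.14 to 0.20, Ifih1 −0.048 to 0.32, Zbp1 −0.21 to 0.31, Eif2ak2 −0.19 to 0.38, Irf1 −0.092 to 0.20, Stat2 −0.13 to 0.019, Gbp7 −0.26 to 0.31 and Iigp1 −0.17 to 0.22. The cause of the sign changes with 1 library left out was not tested. Same-numbered libraries correlated by 0.09, 0.15 and 0.23 in their deviations from the group means, and 5 of 6 libraries correlated best with their own number. The labels do not say whether the numbers pair the libraries or mark a batch, and this was not tested. With a replicate block 9 members rose and 4 fell, with Oas1a and Dhx58 not passing and Gbp8 passing (adjusted p = 0.00920). In that fit 2 of 6 endothelial markers were called lower. Oas2, Gbp5, Gbp8 and Mx1 were under 5 CPM in every library, and the part of depth in their results was not tested.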
